A study of Homo sapiens with 6 samples.

Results

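The AP-2 transcription factors are a family of 5 human genes, TFAP2A, TFAP2B, TFAP2C, TFAP2D and TFAP2E, taken from the deposited gene table by their symbols (5 of 58735 genes). They are also the 5 genes that the table itself files under AP-2 in its transcription factor column. The family was picked out because TFAP2C differed between the 2 groups of libraries, so the members' differences are given as descriptions, without a test. PolyA RNA was sequenced in 3 libraries of HEY cells overexpressing miR-200a and 3 libraries of HEY cells with the empty vector. HEY is an established human ovarian cancer line, and every library came from this line, so the comparison describes 1 cell line. Incubation is labelled as 48, 49 and 50 h in the miR-200a group, against 51, 52 and 53 h in the vector group, so time and group cannot be told apart. The labels name no separate cultures or clones, and the p-values therefore reflect spread among these libraries alone, which may be technical.

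AP-2 proteins bind DNA as dimers of the same or of different members and recognise GC-rich palindromes. TFAP2A is known for its part in skin, face and neural crest development. TFAP2C is known from the trophoblast, the germ line and the breast, where it is tied to ERBB2 and hormone receptor expression. miR-200a is a microRNA of the miR-200 family, whose best known targets are ZEB1 and ZEB2, repressors of epithelial genes.

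A microRNA pairs with the 3' untranslated region (UTR) of a messenger mainly through its seed, bases 2 to 8. The mature sequences of the family are shown because their seeds define which AP-2 messengers hold a match, with the seed in capitals (RefSeq, GRCh38.p14). The first pair listed share one seed, and the other 3 microRNAs share another.
hsa-miR-200a-3p: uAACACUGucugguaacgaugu
hsa-miR-141-3p: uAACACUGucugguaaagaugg
hsa-miR-200b-3p: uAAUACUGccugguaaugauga
hsa-miR-200c-3p: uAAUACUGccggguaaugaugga
hsa-miR-429: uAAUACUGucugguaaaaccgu
The DNA match to the miR-200a seed is CAGTGTT, and that to the miR-200b seed is CAGTATT. TFAP2C has 1 annotated coding transcript, whose 3' UTR of 1270 bases holds 1 miR-200a match, starting at base 411 of the UTR, and 0 miR-200b matches. TFAP2A has transcripts with a 3' UTR of 1740 bases that hold 2 miR-200a matches, at bases 668 and 847, and 2 miR-200b matches. Shorter TFAP2A transcripts, with UTRs of 545 bases or fewer, hold 0 miR-200a matches. TFAP2B holds 1 miR-200a match near the end of a UTR of 4221 bases, and TFAP2D and TFAP2E hold 0 of either kind. The windows around the matches are shown 5′ to 3′ on the messenger strand with the match in capitals (GENCODE 29 transcripts, GRCh38).
TFAP2C, chr20:56638413-56638441, plus strand: accttttttttCAGTGTTaaggtaatggt
TFAP2A, chr6:10397732-10397760, minus strand: tataagggaatCAGTGTTcacgtctctgt
TFAP2A, chr6:10397553-10397581, minus strand: atttagaaatcCAGTGTTtgggggatttt
TFAP2B, chr6:50847557-50847585, plus strand: ggtttattgtcCAGTGTTaatctgattta
The TFAP2C and TFAP2B matches are followed by an A, which makes the longer form of a seed site, and neither TFAP2A match is. A match is a description of the sequence and does not show that the microRNA acts there.

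The libraries held 15849592 to 21003858 reads on genes, recovered from the deposited FPKM (fragments per kilobase of gene length, scaled by library). The overexpressed locus was checked by MIR200A, with 5, 4 and 11 reads in the miR-200a group, against 0 in every vector library. Libraries were compared by the root mean square difference of log2(FPKM + 1) over the tested genes, and did not group fully by treatment. miR-200a library 2 stood closer to vector libraries 2 (0.267) and 3 (0.288) than to miR-200a library 1 (0.323) or 3 (0.328). miR-200a library 1 was closest to miR-200a library 3 (0.235), but closer to vector libraries 1 (0.319) and 3 (0.315) than to miR-200a library 2. Values without miR-200a library 2 are given for TFAP2C and where leaving it out changed the call of a named gene, and beside some other genes. The ovarian carcinoma factor PAX8 stood at 32.7 to 41.2 FPKM with miR-200a, against 29.1 to 35.5 with the vector. Keratins 7, 8 and 18 lay above 89 FPKM in every library, while MUC16 and the E-cadherin gene CDH1 were listed at 0 and EPCAM reached at most 0.466. Keratin 19 was low, at 0.705 to 1.29 FPKM with miR-200a, against 1.28 to 2.16 with the vector (limma adjusted p = 0.361). MSLN stood at 7.09 to 10.6 FPKM with miR-200a, against 7.34 to 8.52 with the vector, WT1 at 0.700 to 1.26 FPKM with miR-200a, against 0.857 to 1.11 with the vector, and the mesenchymal filament gene VIM at 789 to 904 FPKM with miR-200a, against 849 to 908 with the vector. Of 10 markers of blood, vessel, liver and connective tissue cells, 1 passed the filter, ACTA2 at 3.75 to 4.53 FPKM with miR-200a, against 3.90 to 4.72 with the vector. Their summed level was 5.04 to 6.45 FPKM with miR-200a, against 5.09 to 6.05 with the vector.

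TFAP2C was the main AP-2 gene of HEY cells and was lower with miR-200a. TFAP2C (ENSG00000087510, chromosome 20, 56629302 to 56639283, plus strand) stood at 7.27, 6.13 and 6.14 FPKM in miR-200a libraries 1 to 3 and at 12.3, 11.5 and 10.1 FPKM in vector libraries 1 to 3. The groups did not overlap, and the highest miR-200a library lay below the lowest vector library. The mean was 6.51 ± 0.654 FPKM with miR-200a, against 11.3 ± 1.12 with the vector (SD, n = 3 each), a level 1.73-fold lower with miR-200a. On the log2(FPKM + 1) scale the difference was -0.71, with an SE of 0.099 from the fit over all tested genes. It rested on 398, 294 and 345 reads with miR-200a, against 777, 616 and 489 reads with the vector. The 95% Poisson intervals reached up to 8.02 FPKM in the miR-200a libraries and down to 9.19 FPKM in the vector libraries, and cover counting error only. With 1 library left out, the difference ranged from -0.78 to -0.65, and it was -0.67 without miR-200a library 2. Bulk RNA cannot tell fewer cells with TFAP2C from less TFAP2C RNA per cell.

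TFAP2A, the next member in level, had groups that overlapped. TFAP2A (ENSG00000137203, chromosome 6, 10393186 to 10419659, minus strand) stood at 0.995, 0.901 and 0.983 FPKM with miR-200a, against 1.10, 1.14 and 0.986 FPKM with the vector. Vector library 3 lay within the range of the miR-200a libraries. The mean was 0.960 ± 0.0514 FPKM with miR-200a, against 1.07 ± 0.0786 with the vector (SD, n = 3 each), and the log2 difference was -0.08. Its reads numbered 119 to 152 in the miR-200a libraries, against 132 to 192 in the vector libraries. It missed the filter of the test, 1 FPKM in at least 3 libraries, because 2 libraries reached it.

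TFAP2E, known from the olfactory bulb of the mouse, was near the limit of counting. TFAP2E (ENSG00000116819, chromosome 1, 35573370 to 35595328, plus strand) stood at 0.297, 0.367 and 0.386 FPKM with miR-200a, against 0.514, 0.555 and 0.139 FPKM with the vector. These values came from 12, 13 and 16 reads in the miR-200a libraries and 24, 22 and 5 reads in the vector libraries. Vector library 3 lay below all other libraries and vector libraries 1 and 2 above them. The log2 difference was -0.04 over all libraries, -0.19 without vector library 3 and 0.04 without vector library 2, so no direction was given at this depth.

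TFAP2B, a member with roles in the kidney and the arterial duct, and TFAP2D, the least studied member, had 0 reads in all 6 libraries. Taking 3 reads as the limit that a count of 0 allows, TFAP2B (chromosome 6, 50818723 to 50847613) lay below 0.0305 FPKM in each library of the miR-200a group and below 0.0302 in each library of the vector group. For TFAP2D (chromosome 6, 50713828 to 50772988) these limits were 0.101 FPKM in the miR-200a group and 0.0999 in the vector group. Of the 5 members, 3 were detected, 1 passed the filter, and in 1 of the 3 detected genes the groups did not overlap. Groups without overlap were found in 12.7% of all genes detected in at least 1 library and in 19% of the tested genes, and nothing is read from the members' count, since TFAP2C was chosen from this contrast.

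**Figure D1:**
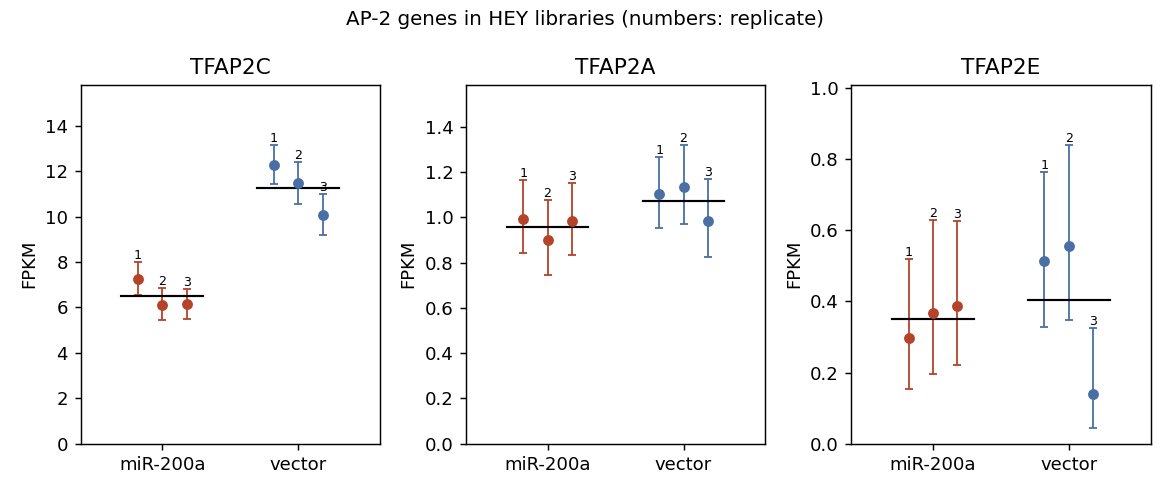
FPKM of TFAP2C, TFAP2A and TFAP2E (linear axes from 0, separate for each gene) in the 3 miR-200a and 3 vector libraries; points are libraries numbered by replicate, bars are 95% Poisson intervals of the reads and black lines are group means. TFAP2C lies at 6.13 to 7.27 FPKM with miR-200a, against 10.1 to 12.3 with the vector, while the groups of the other two genes overlap.

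The order of the levels was TFAP2C, TFAP2A, TFAP2E in each of the 6 libraries. TFAP2C made up 83.2 ± 1.59% of the summed AP-2 FPKM with miR-200a, against 88.5 ± 1.40% with the vector (SD, n = 3 each). The summed AP-2 level was 7.82 ± 0.641 FPKM with miR-200a, against 12.7 ± 1.40 FPKM with the vector. The ratio of TFAP2C to TFAP2A was 7.31, 6.80 and 6.25 in miR-200a libraries 1 to 3 and 11.1, 10.1 and 10.2 in vector libraries 1 to 3. All miR-200a libraries lay below all vector libraries in this ratio, which contains the TFAP2C values that picked the family. The scale of these ratios depends on gene length. The deposited length of TFAP2A is 8274 bases, with exons of all its transcripts merged, while its longest coding transcript has 3829 bases. Over the length of the longest coding transcript, a setting added after the data were seen, TFAP2A stood at 2.07 ± 0.111 FPKM with miR-200a, against 2.32 ± 0.170 with the vector (SD, n = 3 each). TFAP2C then stood at 6.83 ± 0.686 FPKM with miR-200a, against 11.8 ± 1.18 with the vector, so the order held.

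Antisense genes overlap TFAP2A and TFAP2E on the opposite strand, and no source used here says whether the authors' counting used strand, so their reads cannot be told apart with certainty. TFAP2A-AS2 stood at 0.592, 0.877 and 0.625 FPKM with miR-200a, against 0.873, 0.784 and 0.739 with the vector. TFAP2A-AS1 counted 4 to 5 reads in the miR-200a libraries, against 3 to 8 in the vector libraries. AC004865.2, which overlaps the start of TFAP2E, had 17 reads in the miR-200a group and 10 in the vector group. No annotated gene overlaps TFAP2C in the deposited table.

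Among all transcription factors of the deposited column, 842 were tested, and TFAP2C had the lowest log2 difference of them. ZEB2, a repressor of epithelial genes, had rank 4 by this measure, at 0.971 ± 0.0667 FPKM with miR-200a, against 1.91 ± 0.266 with the vector (log2 difference -0.56). As a ratio of means ZEB2 was lower than TFAP2C, at 0.509 for ZEB2 and 0.578 for TFAP2C. TFAP2C had rank 3 from the lowest with a pseudocount of 0.1 and with voom on recovered reads, and rank 2 without miR-200a library 3, vector library 1 or vector library 2. These ranks come from the contrast that chose TFAP2C and are a description.

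The seed match of TFAP2C was set beside all tested genes with an annotated 3' UTR. Of 2288 tested genes with at least 1 miR-200a match in their longest 3' UTR, 63.9% had a negative difference, with a median of -0.05 on the log2(FPKM + 1) scale. Of 7913 tested genes without a match, 47.9% had a negative difference, with a median of 0.01. Genes with 2 or more matches had a median of -0.08 and genes with exactly 1 match a median of -0.04. The UTRs themselves differed, with a median length of 3038.5 bases in genes with a match and 1122 bases in genes without, and the part of UTR length in the shift was not tested. TFAP2C had rank 4 from the lowest among the 2288 genes, after CXCL1, HAS2 and MTSS1. This rank comes from the contrast that chose TFAP2C, so it is a description and says nothing about its seed match. TFAP2A, with 2 matches in its longest UTR, lay below the filter, with overlapping groups. Its difference was -0.08, or -0.15 with a pseudocount of 0.1. Because the scale shrinks changes of low genes, it cannot be set against the medians of the tested genes.

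**Figure D2:**
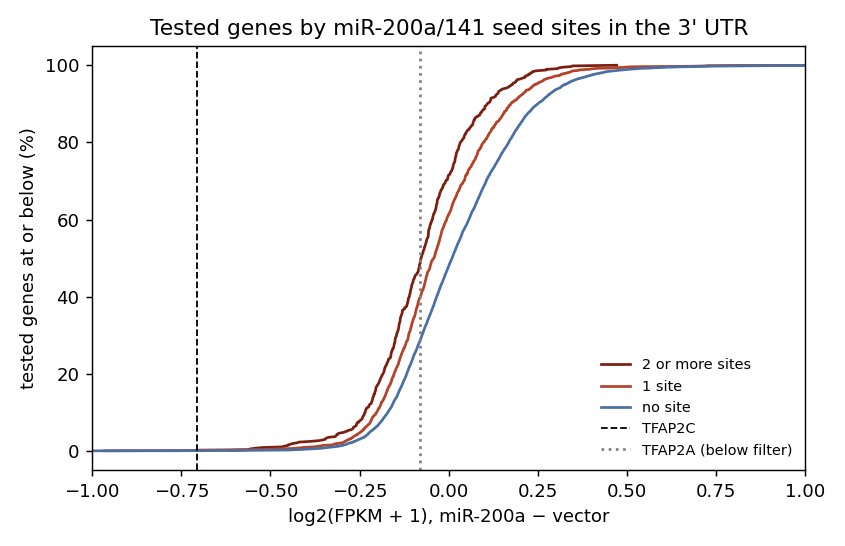
Cumulative share of tested genes (%) against the difference in log2(FPKM + 1), miR-200a minus vector, for genes with 2 or more, 1 or no miR-200a seed matches in the longest 3' UTR; the x axis ends at -1 and 1, and vertical lines mark TFAP2C and TFAP2A. The curves of genes with matches lie to the left of the curve without, with medians of -0.08, -0.04 and 0.01. TFAP2C, which was chosen for its difference of -0.71, lies in the far left tail of each.

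Most expressed genes around TFAP2C on chromosome 20 had differences slightly below 0. None passed the test, which only 0.401% of all tested genes passed. Of 33 other tested genes with a start within 5 Mb of it, 26 had a negative and 7 a positive difference, with a median of -0.15. In 16 of them the groups did not overlap with miR-200a lower, and in 0 with miR-200a higher, where 10.7% of all tested genes did not overlap on the lower side. None of the 33 passed limma's adjusted p of 0.05 (0.401% of all tested genes). With voom on recovered reads 0 passed (0.932% of all tested genes). Nothing is read from these counts of 0, since so few of all tested genes passed. An unadjusted p under 0.05 was found in 12, a threshold that 13.3% of all tested genes passed. Over all 12231 tested genes the median was -0.01, and over the 347 tested on chromosome 20 it was -0.02. Whole chromosomes leaned to either side as well. Among the autosomes and X, the share of tested genes with a negative difference ran from 19.4% (chromosome 22) to 72.3% (chromosome 14). On chromosome 20 it was 55.0%. The median was -0.17 within 2 Mb (15 genes) and -0.05 within 10 Mb (114 genes). The TFAP2C difference was 0.56 below the median of its neighbours within 5 Mb, and its value of -0.71 lay below the lowest of them, C20orf197 at -0.40.

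The values by library are given as a description, since TFAP2C was chosen for its difference and a median over genes varies less than a single gene. Relative to its mean over the 6 libraries on the log2(FPKM + 1) scale, TFAP2C lay at -0.21, -0.43 and -0.42 in miR-200a libraries 1 to 3 and at 0.47, 0.38 and 0.21 in vector libraries 1 to 3. The median neighbour lay at -0.07, -0.06 and -0.10 in the miR-200a libraries and at 0.11, 0.09 and 0.08 in the vector libraries. The part of the stretch in the TFAP2C difference was not tested. Around TFAP2A, 22 of 34 tested genes within 5 Mb were lower, with a median of -0.04. Around TFAP2E, 50 of 102 were lower, with a median of 0.00097.

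The nearest expressed genes on either side showed smaller differences. FAM210B, which lies before TFAP2C on the chromosome, stood at 18.5, 17.6 and 16.6 FPKM with miR-200a, against 23.0, 23.6 and 23.6 with the vector (log2 difference -0.39, limma adjusted p = 0.092). The mitotic kinase gene AURKA stood at 53.7 ± 4.82 FPKM with miR-200a, against 63.02 ± 1.51 with the vector (SD, n = 3 each, limma adjusted p = 0.329). The polyadenylation factor gene CSTF1 stood at 13.3 ± 0.420 FPKM with miR-200a, against 16.3 ± 0.629 with the vector (limma adjusted p = 0.209) and RTF2 at 23.9 FPKM with miR-200a, against 25.7 with the vector (limma adjusted p = 0.569). On the other side, the nuclear export gene RAE1 stood at 7.95 ± 0.336 FPKM with miR-200a, against 9.998 ± 0.591 with the vector (limma adjusted p = 0.209) and the RNA-binding protein gene RBM38 at 7.89 FPKM with miR-200a, against 9.81 with the vector (limma adjusted p = 0.360). The TGF-beta-induced gene PMEPA1 leaned the other way, at 8.71 FPKM with miR-200a, against 7.32 with the vector (limma adjusted p = 0.378). The noncoding RNA NKILA stood at 2.33 FPKM with miR-200a, against 2.64 with the vector (limma adjusted p = 0.598). None of these 8 genes passed the test, which 0.401% of all tested genes passed. The groups did not overlap in 5 of them, and in 19% of all tested genes.

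**Figure D3:**
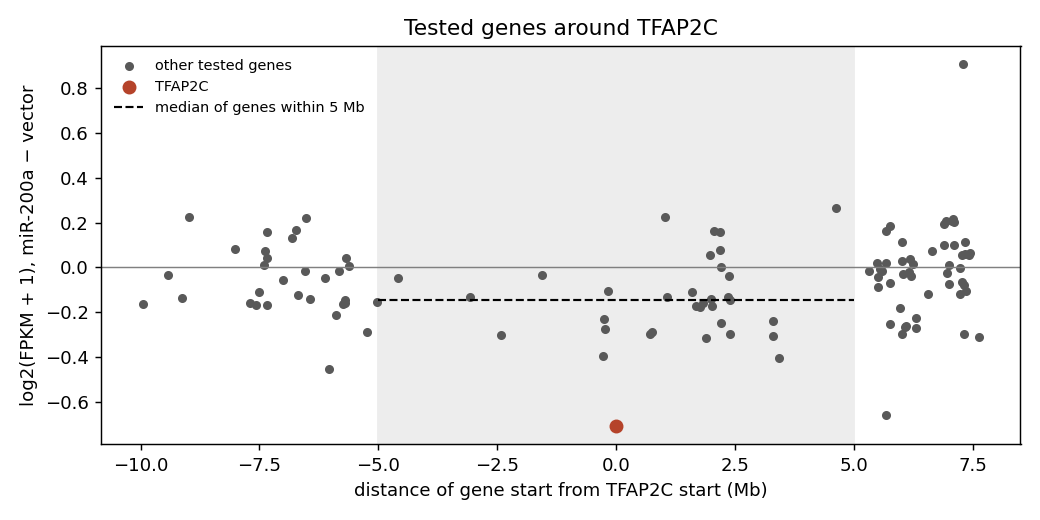
Difference in log2(FPKM + 1), miR-200a minus vector, of tested genes against the distance of their start from the start of TFAP2C (Mb, linear axes); grey shading marks 5 Mb on either side and the dashed line the median of the 33 neighbours there, -0.15. TFAP2C, which was chosen for its difference of -0.71, lies below every other gene shown.

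Over the 6 libraries, the tested genes most like TFAP2C by Pearson's r of log2(FPKM + 1) were DYM (r = 0.996), TMEM200A (0.993), ANKRD13A (0.993), DUSP3 (0.992) and FAM192A (0.991). These are correlations over 6 libraries in 2 groups, to which the difference between the groups contributes, and 255 of 12230 other tested genes reached an r of 0.9. The phosphatase gene DUSP3 stood at 14.4, 13.9 and 13.4 FPKM with miR-200a, against 17.3, 16.7 and 16.1 with the vector. The Golgi protein gene DYM stood at 4.01, 3.87 and 3.78 FPKM with miR-200a, against 4.72, 4.59 and 4.45 with the vector. In all 5 the groups did not overlap, which largely follows from choosing them by likeness to TFAP2C. All 5 lie on chromosomes other than 20.

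Genes described elsewhere as AP-2 targets, activated or repressed, lay on both sides of 0. Of 35 on the list, 19 were tested, and 1 fell and 0 rose at a limma adjusted p under 0.05, where 0.401% of all tested genes were called, 0.286% higher and 0.114% lower. At an unadjusted p under 0.05, which 13.3% of all tested genes passed, there were 4, CXCL8 lower and MMP2, KRT7 and KRT18 higher. Groups did not overlap in 19% of all tested genes and in 6 of these 19. By sign, 12 were higher and 7 lower, with a median log2 difference of 0.09 beside -0.01 over all tested genes. With 1 library left out this median ran from 0.0043 (without miR-200a library 3) to 0.17 (without miR-200a library 2), and it was 0.01 without vector library 2 and 0.03 without miR-200a library 1. The gene that fell was CXCL8, which encodes the chemokine interleukin-8. CXCL8 stood at 4.66, 5.45 and 4.71 FPKM with miR-200a, against 12.1, 14.5 and 15.4 with the vector (log2 difference -1.33, SE 0.11, limma adjusted p = 0.00637). Its call was lost without miR-200a library 3 (limma adjusted p = 0.0555) and without the filter (0.0502), and over 12 alternatives the adjusted p ran from 0.000559 to 0.0555.

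MMP2, the gelatinase gene and a described target of AP-2 alpha, stood at 7.62, 5.79 and 6.95 FPKM with miR-200a, against 3.89, 2.76 and 2.71 with the vector. Its groups did not overlap, and the limma adjusted p was 0.0568, or 0.0432 without miR-200a library 2 and 0.00788 with voom on recovered reads, and up to 0.231 over 12 alternatives. The keratin gene KRT7 stood at 195, 158 and 194 FPKM with miR-200a, against 128, 126 and 142 with the vector (limma adjusted p = 0.179, 0.0432 without miR-200a library 2 and up to 0.606 over 12 alternatives). KRT18 averaged 121 ± 15.3 FPKM with miR-200a, against 97.7 ± 7.34 with the vector (SD, n = 3 each, limma adjusted p = 0.338) and the growth factor gene VEGFA 3.17 ± 0.201 FPKM with miR-200a, against 3.66 ± 0.123 with the vector (limma adjusted p = 0.403). Without miR-200a library 2, the list had 3 calls, with MMP2 and KRT7 higher and CXCL8 lower. In that setting 215 of all 11994 tested genes were called (150 higher, 65 lower), against 49 of 12231 with all libraries.

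Some receptor genes that AP-2 factors are known for in breast cells are named here after their values were seen. Of these, ERBB2 and EGFR were tested and not called. The receptor gene IGF1R of the same list was also tested and not called (limma adjusted p = 0.415). ERBB2 stood at 6.07, 3.93 and 5.98 FPKM with miR-200a, against 4.96, 4.76 and 4.93 with the vector (limma adjusted p = 0.794). EGFR stood at 51.8 ± 1.01 FPKM with miR-200a, against 45.5 ± 5.78 with the vector (SD, n = 3 each, limma adjusted p = 0.435). The oestrogen receptor gene ESR1, below the filter and so without a test, stood at 0.0238, 0.0226 and 0.0386 FPKM with miR-200a, against 0.0446, 0.0808 and 0.0401 with the vector. Its groups were apart only by 0.0386 against 0.0401 FPKM, and counting error was not worked out at this low level. Groups without overlap were found in 12.7% of all genes detected in at least 1 library. RET, CDH1, KRT5 and KRT14 were listed at 0 in all libraries. The pioneer factor gene FOXA1, below the filter and so without a test, stood at 0.593, 0.409 and 0.444 FPKM with miR-200a, against 0.847, 0.815 and 0.776 with the vector.

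Partners and regulators of AP-2 proteins were nearly all expressed, and none was called. Of 17, 16 were tested, with 0 calls in either direction by limma, 0 by voom on recovered reads and 0 at an unadjusted p under 0.05. Over all tested genes these shares were 0.401%, 0.932% and 13.3%. By sign 7 were higher and 9 lower, with a median log2 difference of -0.07, or -0.04 without miR-200a library 3 and -0.05 without vector library 2. CITED4, a coactivator that bridges AP-2 to CBP and p300, stood at 40.2, 25.5 and 35.9 FPKM with miR-200a, against 18.4, 20.4 and 33.0 with the vector (limma adjusted p = 0.414, or 0.119 without miR-200a library 2). With 1 library left out, its limma adjusted p ran from 0.119 to 0.853. Its replicates spread widely and the groups overlapped. The corepressor nucleophosmin, NPM1, stood at 394 ± 24.1 FPKM with miR-200a, against 447 ± 19.6 with the vector (SD, n = 3 each, limma adjusted p = 0.386, or 0.0991 without miR-200a library 2). That was the lowest limma adjusted p of NPM1 with 1 library left out, and the highest was 0.850. The histone demethylase gene KDM5B stood at 2.54 ± 0.0808 FPKM with miR-200a, against 2.97 ± 0.200 with the vector (limma adjusted p = 0.411). The coactivator CITED1 was listed at 0 in all libraries.

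Factors that work beside TFAP2C in the trophoblast and the germ line were mostly below the filter. Of 14, 5 were tested, with 0 calls by limma (0.401% of all tested genes) and by voom on recovered reads (0.932%). At an unadjusted p under 0.05 there were 2, SOX17 and KLF4 (13.3% of all tested genes). The median log2 difference was 0.08, ranging from -0.01 without vector library 2 to 0.20 without miR-200a library 2. SOX17, which acts with TFAP2C in human germ cell precursors, stood at 4.08, 2.83 and 4.41 FPKM with miR-200a, against 2.15, 1.41 and 2.24 with the vector. Its groups did not overlap, and the limma adjusted p was 0.201 (0.0361 to 0.604 over 12 alternatives). KLF4 stood at 6.84, 5.87 and 6.95 FPKM with miR-200a, against 4.66, 5.03 and 5.47 with the vector (limma adjusted p = 0.258, or 0.0624 without miR-200a library 2). With 1 library left out, its limma adjusted p ran from 0.0624 to 0.750. PRDM1 stood at 1.52 FPKM with miR-200a, against 1.64 with the vector (limma adjusted p = 0.780) and TEAD4 at 20.3 FPKM with miR-200a, against 19.05 with the vector (limma adjusted p = 0.797). CDX2, HAND1 and NANOG were listed at 0 in all libraries.

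Of 14 factors of the neural crest and surface ectoderm, where TFAP2A acts, 7 were tested. There were 0 calls by limma, against 0.401% of all tested genes. At an unadjusted p under 0.05 there were 2, SOX9 and MITF (13.3% of all tested genes). By voom on recovered reads there was 1, SOX9 higher (0.932% of all tested genes). SOX9, a factor of cartilage and crest development, stood at 12.7, 10.6 and 12.8 FPKM with miR-200a, against 7.88, 7.48 and 7.88 with the vector. Its groups did not overlap, and the limma adjusted p was 0.0618, or 0.0304 without miR-200a library 2 and 0.0211 with voom, and up to 0.297 over 12 alternatives. The melanocyte factor MITF stood at 1.32 ± 0.111 FPKM with miR-200a, against 1.76 ± 0.0857 with the vector (SD, n = 3 each, limma adjusted p = 0.328, or 0.104 without miR-200a library 2). With 1 library left out, its limma adjusted p ran from 0.104 to 0.796. MSX1 stood at 14.9 ± 2.78 FPKM with miR-200a, against 12.2 ± 1.27 with the vector (limma adjusted p = 0.452) and TWIST1 at 10.2 ± 0.689 FPKM with miR-200a, against 9.08 ± 1.82 with the vector (limma adjusted p = 0.578). The median log2 difference of the 7 was 0.07, and 0.04 (without vector library 3) to 0.11 (without miR-200a library 1) with 1 library left out. It was 0.05 without vector library 1 and also without miR-200a library 3.

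**Figure D4:**
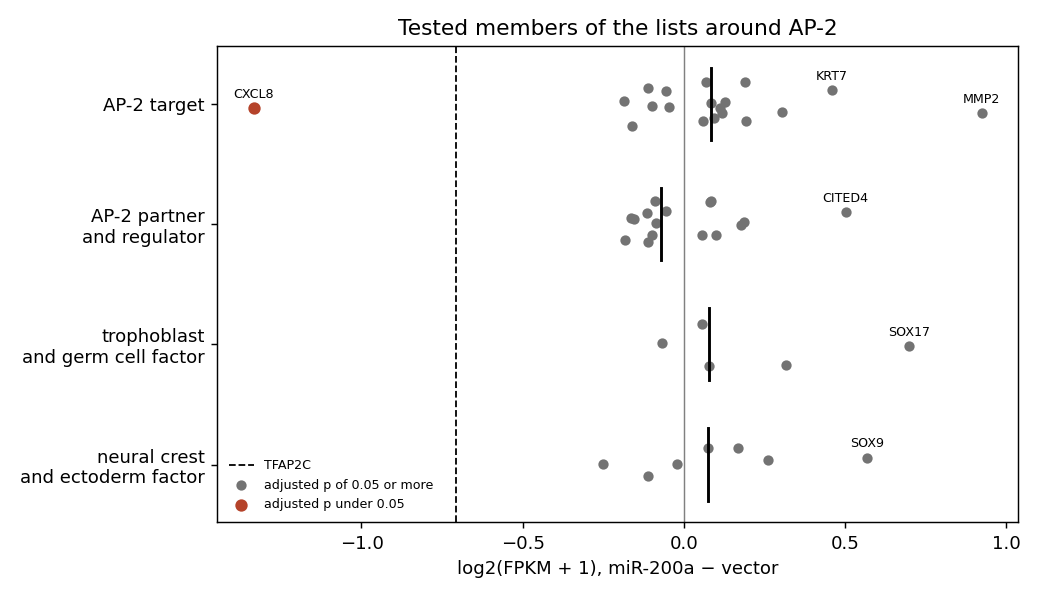
Difference in log2(FPKM + 1), miR-200a minus vector, of the tested members of 4 gene lists around AP-2 (19, 16, 5 and 7 genes, 1 point each, spread vertically for legibility); black bars are medians, red marks a limma adjusted p under 0.05 and the dashed line is TFAP2C. CXCL8 at -1.33 is the only called point, and the medians lie between -0.07 and 0.09.

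The palindrome GCCNNNGGC, a core form of the AP-2 motif that reads the same on both strands, was searched in promoter windows of 300 bases (250 before to 50 after the start, RefSeq, GRCh38.p14). It was found in 23.2% of 35116 windows and for 26.6% of 27305 gene symbols. Of the 35 described targets, 24 had a window and 12 of these held it, among them EGFR and IGF1R but not CXCL8 or ERBB2. Tested genes held it more often than all symbols did, at 3301 with it and 5204 without. Nothing is therefore read from the count of 12. Tested genes with the motif had a median log2 difference of 0.01 (3301 genes) and those without a median of -0.02 (5204 genes). Windows were matched for 4 of the 5 members, TFAP2A, TFAP2B, TFAP2D and TFAP2E, and 0 of their 5 windows held these letters.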

How the data were processed

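The deposited table holds FPKM values made by the authors for 58735 genes in 6 libraries. No source used here names the aligner, counter or strand setting. GRCm38 and mm10 are named in the submitters' processing notes, but the positions and strands of 58735 genes equalled human GENCODE 29, so coordinates are on GRCh38. FPKM times deposited gene length and 1 factor per library gave whole reads for 100% of nonzero values, within 0.001 of a read. Depth was 15849592 to 21003858 reads; Poisson intervals cover counting error only. Genes with at least 1 FPKM in at least 3 libraries were tested on log2(FPKM + 1) with limma 3.58.1 (R 4.3.3, eBayes with trend, two-sided, Benjamini-Hochberg over all tested genes, threshold 0.05), and the script was tested on simulated data. Differences on this scale understate changes of low genes.

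The members, the gene lists and the rules were chosen with earlier results of these data known. Named were the 5 members, called list genes, up to 4 further tested genes per list with the smallest adjusted p, 4 tested genes on each side of TFAP2C and the 5 most correlated with it. Some genes that the rule names are not reported here. Exceptions are MIR200A, markers, AP-2 antisense genes, factors and seed match genes ranked beside TFAP2C, C20orf197, ERBB2, EGFR, ESR1, IGF1R, FOXA1 and genes listed at 0, chosen after their values were seen. Alternatives were another pseudocount, other filters, equal read totals, the replicate number as a term, each library left out and, added later, voom on recovered reads.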

Additional observations from a re-analysis of the deposited data

How the results depend on the processing

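Over all genes, limma called 49 genes, and 45, 47 and 50 with a pseudocount of 0.1, a filter at 0.5 FPKM and equal read totals. Without a filter 5 were called, with voom on recovered reads 114 (81 higher, 33 lower), and with 1 library left out 4 to 215, the highest without miR-200a library 2. With the replicate block 69 were called. Between same-numbered libraries, deviations from the group means correlated at 0.14, 0.37 and -0.01 for numbers 1 to 3. Libraries of different numbers were not compared in this way, so whether the numbers mark pairs was not tested. The block added MMP2 to the target list (2 calls), SOX17 to the trophoblast and germ cell list (1 call) and SOX9 to the neural crest list (1 call). The target list had 1 call with all libraries, 0 without a filter, 2 with voom and 0 to 3 with 1 library left out. The neural crest list had 0 calls, 1 with voom and 0 to 1 with 1 library left out. The partner list had 0 calls in every setting run. The TFAP2A difference of -0.08 was -0.15 with a pseudocount of 0.1, which the scale itself brings for a low gene. The planned edgeR and DESeq2 fits were not run, since the deposited values are FPKM. Depth limits TFAP2E, at 5 to 24 reads per library.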
